A study of Homo sapiens with 6 samples.

Results

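The miR-320 family was followed in small-RNA libraries from exosomes, the small vesicles that cells release, of HCT116 cells, which are a long-established line from a human colorectal carcinoma. The 5 members, hsa-miR-320a, hsa-miR-320b, hsa-miR-320c, hsa-miR-320d and hsa-miR-320e, were taken by their exact names from the 2588 mature miRNA entries of the deposited tables. The siCTL group holds 3 libraries from cells that received a control siRNA. The siPRDX3 group holds 3 libraries from cells that received an siRNA to PRDX3, whose product is a mitochondrial peroxiredoxin, an enzyme that removes peroxide. Transfection was by microporation for 40 h, and exosomes were then collected with a commercial kit from medium whose serum had been depleted of nanoparticles, over 24 h. The question put to the family was whether its exosomal level changes on PRDX3 depletion. The knockdown itself could not be checked, as small-RNA libraries do not cover PRDX3 mRNA. The closing sentence of the series' design text, which names a different siRNA and endothelial cells, was set aside in favour of the sample titles. Whether the libraries within a group are separate cultures is not stated in the labels, so the spread behind each p-value may be purely technical.

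Most miRNAs are cut from a long primary transcript by Drosha and then from a hairpin by Dicer. The hairpin of miR-320a is known as an exception: it is transcribed as a short hairpin with a 5′ cap, skips Drosha and goes directly to Dicer, and mainly its 3′ arm is kept. The family is often listed among the miRNAs found in exosomes. Like other miRNAs its members pair with target mRNAs mainly through the seed, which is bases 2 to 8 from the 5′ end, so members with the same seed are usually predicted to share targets.

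Mature sequences of 4 of the 5 members matched the RefSeq table by name (build GRCh38.p14). They are shown because the members differ almost only at the 3′ end, which decides to which entry a read could be assigned. Capitals mark the seed.
miR-320b: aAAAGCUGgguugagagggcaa
miR-320c: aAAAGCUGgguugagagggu
miR-320d: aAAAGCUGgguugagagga
miR-320e: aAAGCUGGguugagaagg
With positions counted from 1 at the 5′ end of the first-named member, miR-320b and miR-320c differ by C20U and share the 19 bases before it, while miR-320b and miR-320d differ by G19A and share 18. A read that ends before position 19 fits all of miR-320b, miR-320c and miR-320d, and how such reads were divided between the entries is not given in the sources used here. miR-320e lacks the first base of the others, which moves its seed by 1 base. Along the 18 bases of miR-320e, miR-320b differs from it by G17A, with the position counted on miR-320b.

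The 7 mature loci behind these 4 members lie on 5 chromosomes. miR-320b comes from chr1:116671787-116671808 (plus strand) and chr1:224257049-224257070 (minus strand, in an intron of NVL). miR-320c comes from chr18:21683559-21683578 and chr18:24321716-24321735, both on the plus strand and antisense to introns of ABHD3 and OSBPL1A. miR-320d comes from chr13:40727828-40727846 and chrX:140926172-140926190, both on the minus strand and outside other genes of GENCODE v29. miR-320e comes from chr19:46709294-46709311 (minus strand), in an intron of PRKD2, its host gene on the same strand. The seed of miR-320b, miR-320c and miR-320d is carried by 4 entries of the RefSeq list, and the entry outside the family is miR-4429 (chr2:11540652-11540671, minus strand), shown for its shared seed in capitals.
miR-4429: aAAAGCUGggcugagaggcg
Against miR-320c it has 3 differences, the first at U11C. Its reads numbered 0, 1 and 5 across the siCTL libraries and 16, 3 and 3 across the siPRDX3 libraries, too few to be tested, and it was singled out by its seed and not by its values.

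The deposited values are on a log2(value + 1) scale, and whole reads were recovered from them, since within a library each value is a whole multiple of what 1 read is worth. The libraries held 40146 to 230946 miRNA reads. Of the 80 miRNAs with enough reads to be tested, siCTL 1 lacked 30 and siCTL 2 lacked 23 altogether, while siCTL 3 lacked 0. The siPRDX3 libraries lacked 1, 8 and 1. A miRNA could pass the filter through the siPRDX3 libraries alone, so entries missing from controls are partly built in by it. Over all 2588 entries, those with reads numbered 137, 190 and 356 across siCTL 1 to 3. Across siPRDX3 1 to 3 they numbered 334, 215 and 272. miR-4451, the most abundant entry, took 11.8% to 76.9% of a library's reads and so moves every other share. Of 8 colon epithelium miRNAs, miR-429 was at 0 in all libraries, and their summed share of reads was 0.0075%, 0.0049% and 1.16% across siCTL 1 to 3, and 0.304%, 0.0114% and 0.286% across siPRDX3 1 to 3. Values listed for a group below follow this order of libraries.

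The family as a whole was a major component of 4 libraries and nearly missing from siCTL 1 and siCTL 2. Its members together gave 1, 62 and 6541 reads across the siCTL libraries, and 24168, 2605 and 2332 across the siPRDX3 libraries. As a share of miRNA reads this was 0.0025% in siCTL 1 (95% Clopper-Pearson interval 6.3e-05 to 0.0139), 0.0766% in siCTL 2 (0.0587 to 0.0982) and 5.24% in siCTL 3 (5.12 to 5.37). It was 10.5% in siPRDX3 1 (10.3 to 10.6), 2.70% in siPRDX3 2 (2.59 to 2.80) and 3.30% in siPRDX3 3 (3.17 to 3.43). These intervals cover counting error only, as reads that PCR copied from 1 molecule cannot be recognised. The family therefore differed between siCTL 3 and the other 2 control libraries by far more than counting error, and the share of siCTL 3 lay inside the siPRDX3 range. The group means of this share (± SD over n = 3 libraries) were 1.77% ± 3.005 for siCTL and 5.49% ± 4.32 for siPRDX3, with no test because the sum runs over members chosen with results known. The difference of 3.71 percentage points fell to 1.22 without siPRDX3 1, the library with the highest share, and was 5.45 without siCTL 3. Without miR-4451 in the denominator the means were 2.20% ± 3.53 and 7.51% ± 3.78. The colon epithelium miRNAs were low in siCTL 1 and siCTL 2 too, and their part in the family's low level there was not tested. In siPRDX3 2 they stood at 0.0114% beside a family share of 2.70%. Their sum joins miRNAs that differed between libraries. In siCTL 3 and siPRDX3 1, miR-215-5p gave 580 and 2 reads, while miR-200b-3p gave 1 and 216.

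miR-320a, the founding member, was the only one with a read in every library. The siCTL libraries gave 1, 32 and 2711 reads of it, and the siPRDX3 libraries gave 8881, 2223 and 997. On the deposited log2 scale the control levels were 4.70, 9.32 and 14.40, and the levels after PRDX3 siRNA were 14.69, 13.94 and 12.71. The lowest of these levels is a single read in the shallowest library. The groups overlapped because siCTL 3 lay above siPRDX3 2 and siPRDX3 3 on this scale (by share of reads, above siPRDX3 3 alone), and the control libraries varied widely (9.47 ± 4.85, SD, n = 3) while the siPRDX3 libraries lay between 12.71 and 14.69. By number of reads miR-320a ranked 9th, 9th and 12th in siPRDX3 1, 2 and 3 and 12th in siCTL 3, but 31st in siCTL 2. The hairpin gene of miR-320a lies on chromosome 8, outside other genes of GENCODE v29. Fitted over all libraries, it lay higher in siPRDX3 by 4.31 on the log2 scale (SE 2.38), which did not pass (limma, adjusted p = 0.502 over all tested miRNAs).

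miR-320b, the other abundant member, gave 0, 17 and 2942 reads across the siCTL libraries, and 9368, 304 and 960 across the siPRDX3 libraries. It was the 7th most abundant entry of siPRDX3 1 and the 11th of siCTL 3, and only the 29th of siPRDX3 2. With no read in siCTL 1, a share of as much as 0.00919% remains possible there, under the 0.0210% found in siCTL 2. Mean log2 levels (± SD, n = 3) were 7.64 ± 7.29 for the controls and 12.83 ± 1.85 after PRDX3 siRNA, and siCTL 3 again lay inside the siPRDX3 range. The difference of 5.19 was the largest among the tested members, but its SE was 3.48 and it did not pass (limma, adjusted p = 0.546).

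miR-320c and miR-320d, the shorter members, were less abundant. miR-320c gave 0, 9 and 295 reads across the siCTL libraries, and 1994, 47 and 343 across the siPRDX3 libraries. For miR-320d the numbers were 0, 4 and 592, and 3925, 30 and 32. For both, siPRDX3 1 was highest and siCTL 1 lowest, and siCTL 3 lay among the siPRDX3 libraries. The log2 difference between groups was 4.46 for miR-320c (SE 2.99; limma, adjusted p = 0.546), and it did not pass. For miR-320d it was 3.49, the smallest of the tested members, and it did not pass either (SE 3.34; limma, adjusted p = 0.59). miR-320e, the member with the shifted seed, was at the limit of detection, with 1 read in siCTL 3, 1 in siPRDX3 2 and 0 in the other 4 libraries. It was not tested. In siPRDX3 1, the deepest library, 0 reads leaves room for at most 0.0016% of reads, while the other members together took 10.5% there.

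**Figure D1:**
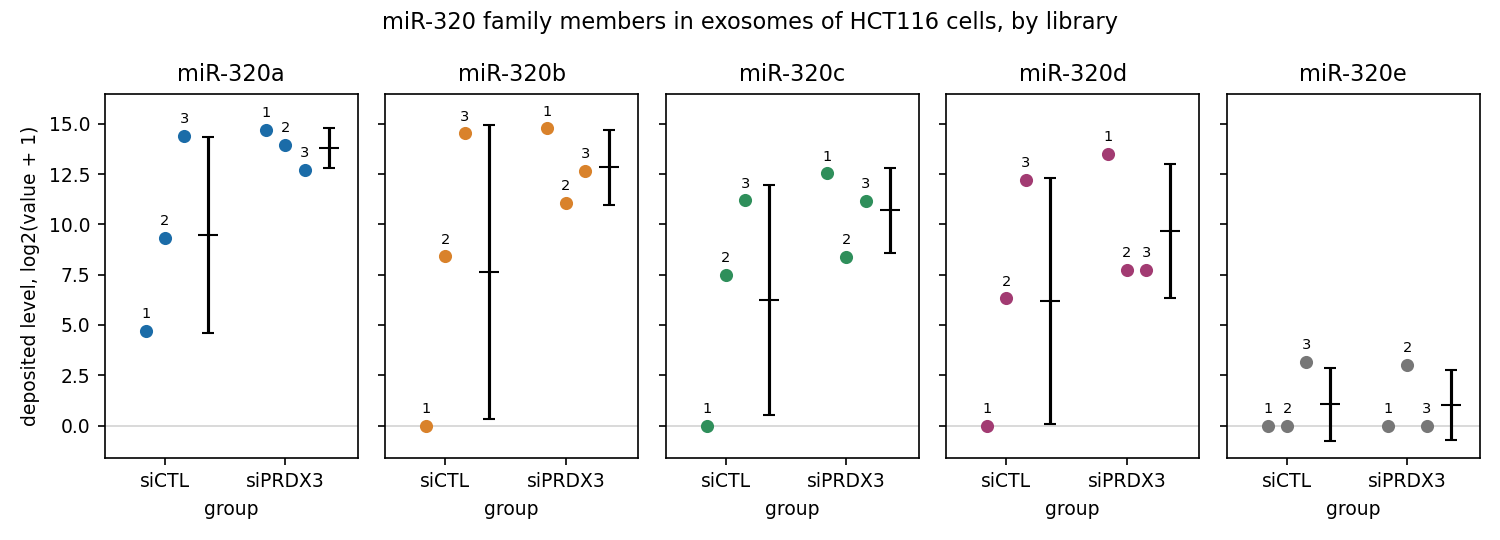
Deposited level of each miR-320 family member on the log2(value + 1) scale (vertical axis) in the siCTL and siPRDX3 libraries (horizontal axis). Each point is 1 library with its replicate number above it, and the bar beside each group is the mean with 1 SD (n = 3). siCTL 3 lies among the siPRDX3 libraries for miR-320a to miR-320d, siCTL 1 and siCTL 2 lie below all of them, and miR-320e has 1 read in each of 2 libraries.

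Over the whole table, 0 of the 80 tested miRNAs passed an adjusted p of 0.05 by limma, a background of 0%, and 0 of the 4 tested members passed. At an unadjusted p under 0.05 there were 6 miRNAs (7.5%) and 0 members. limma-voom on recovered reads gave 1 call (1.25%) with library totals, miR-1260b, and 0 with the sizes implied by the authors' scaling, and none of these was a member. The groups did not overlap in deposited level for 13 of the 80 (16.2%) and for 0 of the members, and in share of reads for 12 (15%) and 0. All 4 tested members had fold changes above 0, as did 51 of the 80 (63.8%), and 27 of the 80 (33.8%) had a fold change at least as high as that of miR-320d. The median over all tested miRNAs was 1.72. Relative to that median the members lay higher by 2.58 (miR-320a), 3.47 (miR-320b), 2.74 (miR-320c) and 1.77 (miR-320d). With library totals in place of the authors' scaling the median moved to 2.57 and the same differences were 2.69, 3.57, 2.84 and 1.86. These differences also depended on the low controls. Without siCTL 1 they were 1.28, 0.73, 0.71 and −0.24. With siCTL 1 and siCTL 2 left out together they were 0.53, −0.54, 0.64 and −1.39. The tested members passed a filter that asked for reads in at least 3 libraries, and miR-320e was left out by it.

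The size and the direction of these fold changes depended on which control libraries entered. Without siCTL 3, whose family share lies in the siPRDX3 range, miR-320a passed with a log2 fold change of 6.77 and SE 1.75 (limma, adjusted p = 0.036, against 0.236 to 0.833 under its other alternatives). In that setting 20 of the 80 miRNAs passed (25%), so 1 of 4 members is the background share. miR-320b stood there at 8.63, miR-320c at 6.95 and miR-320d at 6.50, with limma adjusted p-values of 0.0555, 0.0846 and 0.105. Without siCTL 1 the fold changes shrank to 1.92, 1.37, 1.35 and 0.40 for miR-320a, miR-320b, miR-320c and miR-320d, and 0 passed. With siCTL 1 and siCTL 2 left out together, which leaves siCTL 3 as the lone control and assumes that it varies like the siPRDX3 libraries, the fold changes were −0.62, −1.69, −0.50 and −2.54. Their SEs there were 1.14, 1.57, 2.02 and 2.63, and 0 of the 80 miRNAs passed (limma, 0%; 3 at an unadjusted p under 0.05), with 21.2% of all fold changes above 0.

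**Figure D2:**
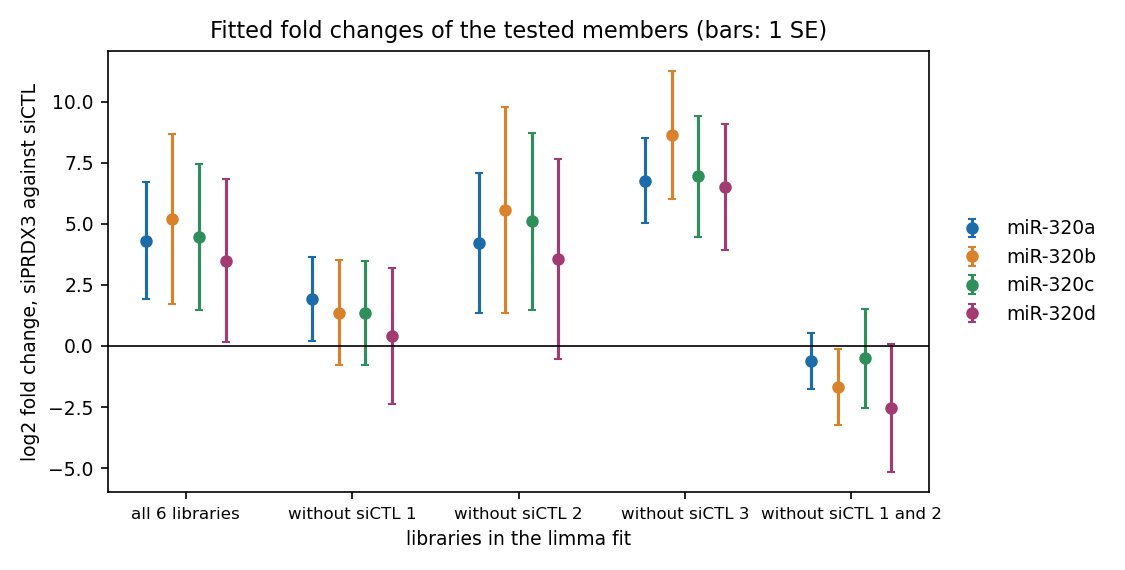
Log2 fold change of siPRDX3 against siCTL (vertical axis) for miR-320a, miR-320b, miR-320c and miR-320d, fitted by limma with different control libraries (horizontal axis); points are fitted values and bars are 1 SE. The values run from 3.49 to 5.19 with all 6 libraries, from 6.50 to 8.63 without siCTL 3, and from −2.54 to −0.50 without siCTL 1 and siCTL 2.

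The members shown above are 18 to 22 bases long, so their reads were set side by side without a correction for length. The mix of members was compared in the 5 libraries with at least 30 family reads, which leaves out siCTL 1. In siCTL 3, siPRDX3 1 and siPRDX3 3, miR-320a and miR-320b were close to equal. miR-320a made up 41.4% (95% Clopper-Pearson interval 40.2 to 42.7), 36.7% (36.1 to 37.4) and 42.8% (40.7 to 44.8) of family reads there, and miR-320b 45.0% (43.8 to 46.2), 38.8% (38.1 to 39.4) and 41.2% (39.2 to 43.2). siPRDX3 2 differed from these 3 by more than counting error: miR-320a made up 85.3% (83.9 to 86.7) of its family reads and miR-320b 11.7% (10.5 to 12.97), or 7.31 reads of miR-320a for each of miR-320b. In siCTL 2 the shares of miR-320a and miR-320b were 51.6% (38.6 to 64.5) and 27.4% (16.9 to 40.2), on only 62 family reads.

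The 2 short members did not keep a fixed proportion either. miR-320d made up 16.2% of family reads in siPRDX3 1 (15.8 to 16.7) and 9.05% in siCTL 3 (8.37 to 9.77). In siPRDX3 2 and siPRDX3 3 it made up 1.15% (0.778 to 1.64) and 1.37% (0.940 to 1.93), and in siCTL 2 it made up 6.45% (1.79 to 15.7). miR-320c made up 14.7% in siPRDX3 3 (13.3 to 16.2) and 14.5% in siCTL 2 (6.86 to 25.8), then 8.25% in siPRDX3 1 (7.91 to 8.60), 4.51% in siCTL 3 (4.02 to 5.04) and 1.80% in siPRDX3 2 (1.33 to 2.39). The ratio of these 2 members thus turned between libraries. siPRDX3 3 had 10.7 reads of miR-320c for each of miR-320d, while siCTL 3 and siPRDX3 1 had 2.01 and 1.97 reads of miR-320d for each of miR-320c. Such differences lay within the siPRDX3 group as much as between groups: the share of miR-320a was 46.5% ± 7.19 in siCTL (SD, n = 2) and 54.9% ± 26.5 in siPRDX3 (SD, n = 3). The sequences above differ by 1 base at position 19 or 20, so the division of reads between miR-320b, miR-320c and miR-320d is uncertain. The same holds for the division between miR-320a and miR-320b, the main difference in the mix, since the sequence of miR-320a was not compared here and the treatment of reads that fit several entries is not given.

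**Figure D3:**
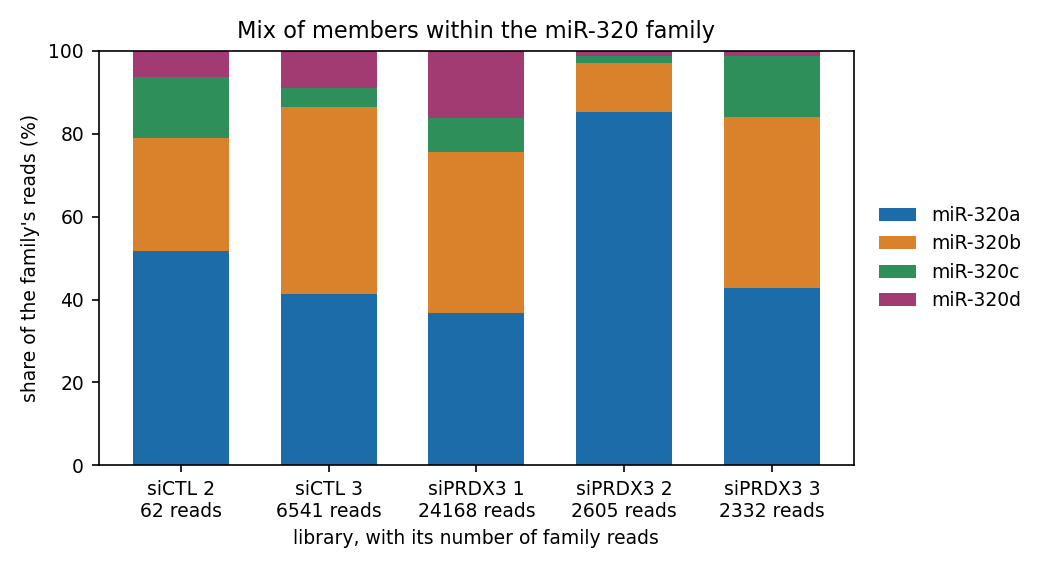
Share of the family's reads (vertical axis, percent) taken by miR-320a, miR-320b, miR-320c and miR-320d in each library with at least 30 family reads (horizontal axis, with the number of family reads). Each bar is 1 library. miR-320a takes 85.3% in siPRDX3 2 and 36.7% to 51.6% in the others, and the miR-320d segment is widest in siPRDX3 1 at 16.2%.

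The tested members nevertheless ranked the libraries almost alike, while miR-320e had too few reads to rank them. Reads that fit several members could count for each of them, and their part in this likeness was not tested. For miR-320b, miR-320c and miR-320d the order of deposited levels was the same, from siPRDX3 1 through siCTL 3, siPRDX3 3, siPRDX3 2 and siCTL 2 to siCTL 1. miR-320a followed this order except that siPRDX3 2 stood above siPRDX3 3. Not every neighbour in it was separated: miR-320d had 32 reads in siPRDX3 3 and 30 in siPRDX3 2, which is within counting error, and by share of reads miR-320c was higher in siPRDX3 3 (0.485%) than in siCTL 3 (0.237%). By share miR-320a was likewise higher in siPRDX3 2 (2.30%, 95% Clopper-Pearson interval 2.21 to 2.40) than in siCTL 3 (2.17%, 2.09 to 2.26), with intervals that overlap. Because siCTL 1 and siCTL 2 lay far below the other 4 libraries for every abundant member, a pooled correlation between members would rest on them, and none is given.

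Among the 76 other tested miRNAs, those most like the family were ranked by Pearson's r between log2 levels and the log2 of the family's summed value over the 6 libraries. The ranking rests largely on the low points of siCTL 1 and siCTL 2, like the correlations between members, so it serves only to name miRNAs and no result is drawn from it. On the authors' scaling the highest was miR-589-5p (r = 0.97, Spearman's rho = 0.83), with 0, 2 and 54 reads across the siCTL libraries, and 59, 32 and 26 across the siPRDX3 libraries. miR-100-5p followed (r = 0.97, rho = 0.83), with 0, 1 and 1574 reads against 7228, 321 and 2284, and then miR-92b-3p (r = 0.95, rho = 0.89), with 1, 6 and 674 against 1796, 79 and 168. miR-3184-3p (r = 0.95, rho = 0.94) and miR-423-5p (r = 0.95, rho = 0.89) completed the 5. These last come from opposite strands of the same locus and cannot be told apart without strand. Their reads were 14, 668 and 6501 in siCTL for miR-3184-3p and 18, 701 and 6666 for miR-423-5p, so siCTL 2 was less depleted of them than of the family. With library totals the first place went to let-7f-5p (r = 0.99), which stood 14th on the authors' scaling (r = 0.89).

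Other miRNAs made without Drosha or without Dicer were mostly scarce in the same libraries, apart from miR-451a. Of 16 such entries, 7 had no read in any library, 3 reached 10 reads in any library and 1 was tested. miR-484, which like miR-320a comes from a capped transcript, had 2 reads in siCTL 3 and 0 elsewhere. The mirtron miR-877-5p, a hairpin released by splicing, gave 0, 0 and 8 reads across the siCTL libraries, and 7, 19 and 6 across the siPRDX3 libraries. The mirtron miR-1224-5p had 0, 0 and 22 against 470, 5 and 0. miR-451a, which is cut by AGO2 in place of Dicer and is the miRNA of red cells, had 431, 1569 and 1638 reads against 696, 1458 and 364, a log2 difference of −2.13 that did not pass (SE 1.09; limma, adjusted p = 0.491). siCTL 1 and siCTL 2 thus held 431 and 1569 reads of miR-451a beside 1 and 62 of the family.

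In the list described as enriched in exosomes, which does not hold the family, 6 of 11 entries were tested and 0 passed. With all libraries on the authors' scaling the 6 had fold changes below 0, with a median of −1.26, against 1.72 over all tested miRNAs, and with library totals, by limma or limma-voom, 3 of the 6 lay above 0 (miR-1246, miR-21-5p and let-7a-5p). miR-1246 also did so with median-of-ratios factors, without miR-4451 in the totals, and without siCTL 2, siCTL 3, siPRDX3 2 or siPRDX3 3, and miR-21-5p without siPRDX3 3. By mean level its leading members were let-7a-5p (−0.82), miR-486-5p (−2.25), miR-1290 (−1.63) and miR-451a (−2.13), with limma adjusted p-values of 0.59, 0.397, 0.538 and 0.491. Across the siCTL libraries let-7a-5p gave 2387, 1836 and 7453 reads, and miR-486-5p 1750, 2262 and 3307. These 2 miRNAs were thus held in quantity by controls where the family had 1, 62 and 6541 reads. So were miR-1290 (2186, 826 and 1470 reads) and miR-451a (431, 1569 and 1638). miR-1246 gave 45, 514 and 838 reads, with a higher deposited log2 level in siCTL 2 (13.3) than in siCTL 3 (12.7). In the siCTL libraries miR-21-5p gave 37, 55 and 133 reads, and miR-150-5p, miR-223-3p, miR-142-3p, miR-146a-5p and miR-214-3p gave 0.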

How the data were processed

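Small RNA of exosomes was sequenced in 3 siCTL and 3 siPRDX3 libraries, grouped by their titles. The authors deposited 1 table per library with log2 values and 3 decimals. Bowtie2 and bedtools 2.25.0 were used at unspecified steps, per the submitters' processing notes. Build, read filters, scaling and the handling of multiply mapped reads: not given in the sources used here. Values were read as log2(x + 1). All x of up to 100 reads lay within 0.1 read of a whole multiple of 1 step per library, so reads were recovered, to about 0.0347% for abundant entries. Sums of x differ between libraries, so x is not plain CPM.

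limma 3.58.1 in R 4.3.3 (mean-variance trend, two-sided, Benjamini-Hochberg) was fitted to the log2 values of all miRNAs with 10 reads at the median depth in at least 3 libraries and 15 in all, which is a CPM of 113. Steps were tested on simulated data. The simulated libraries varied far less within a group than the real ones, so this does not show how the fit behaves on these data. Shares carry exact 95% Clopper-Pearson intervals, and for a count of 0 the upper end of the interval is given. Named are the 5 members, the 5 miRNAs most like the family, and entries of the list made without Drosha or Dicer with 10 reads in any library (miR-484, below that, was added for its capped transcript). All 11 entries of the exosome list are named too, more than the 4 that were planned. The members and lists were chosen with earlier results of these data known. Alternatives covered scaling, pseudocount, filter, limma-voom, the replicate block and left-out libraries. Marker lists of other cell types gave summed shares of reads, in siCTL and then siPRDX3, of 3.97% to 5.43% and 1.06% to 3.46% for red cells, 0.0593% to 5.35% and 2.44% to 9.63% for liver, 0% and 0% to 0.406% for leukocytes and platelets, 0% to 0.0016% and 0% to 0.0071% for fibroblasts and smooth muscle, and 0% to 0.0040% and 0% to 0.218% for endothelium. The red cell sum came almost only from miR-451a and miR-486-5p. In that list miR-144-3p had 0 reads, and a library held at most 4 of miR-144-5p and 2 of miR-16-5p. The leukocyte and platelet maximum was miR-146a-5p in siPRDX3 3 (287 reads). Such sums are therefore no measure of a cell type's content.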

Additional observations from a re-analysis of the deposited data

How the results depend on the processing

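The 4 tested members kept fold changes above 0 under every scaling, pseudocount, filter and limma-voom setting and with each single library left out, and turned below 0 with siCTL 1 and siCTL 2 left out together, at −0.62 (miR-320a), −1.69 (miR-320b), −0.50 (miR-320c) and −2.54 (miR-320d). With 1 library left out the values ran from 1.92 to 6.77, from 1.37 to 8.63, from 1.35 to 6.95 and from 0.40 to 6.50 in the same order. The highest value of each came without siCTL 3, where miR-320a passed, and the lowest without siCTL 1. The number of members past the threshold ran from 0 to 1 and that of all miRNAs from 0 to 20, and limma-voom with library totals gave 1 miRNA in place of 0. Of the 5 miRNAs most like the family 4 stayed among the first 5 with library totals, and miR-92b-3p (r = 0.96) did not, while let-7f-5p (r = 0.99) came first. With the replicate number as a replicate block the members' fold changes were the same, 4.31, 5.19, 4.46 and 3.49, with limma adjusted p-values of 0.466, 0.466, 0.524 and 0.677, and 0 miRNAs passed. Deviations of same-numbered libraries correlated at −0.24, 0.18 and 0.14, and those of differently numbered libraries at −0.36 to 0.33. With so few libraries this cannot decide whether the numbers pair them. Depth limits what can be said of miR-320e, with 1 read in each of 2 libraries, and of the mix in siCTL 1, with 1 family read. The interval of the family's share in siCTL 1 ends at 0.0139%, below the share in each of the other 5 libraries.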
